A study of Arabidopsis thaliana with 18 samples.

Results

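The genes described here are the Arabidopsis ATG8 family and NBR1, taken by their TAIR identifiers from the table of normalized counts. Of 10 identifiers sought, 9 had a row among the 35197 rows of the table, and all 9 were among the 23760 rows tested. They were ATG8A, ATG8C, ATG8D, ATG8E, ATG8F, ATG8G, ATG8H, ATG8I and NBR1. ATG8B was not analysed here.

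Autophagy encloses part of the cytoplasm in a double membrane, the autophagosome, and delivers it to the vacuole for breakdown. ATG8 is a small ubiquitin-like protein that the protease ATG4 trims to expose a glycine, after which ATG7, ATG3 and the ATG12-ATG5 conjugate attach it to phosphatidylethanolamine of the growing membrane. NBR1 is a cargo receptor that binds ubiquitinated proteins with its C-terminal part and ATG8 with a short motif, and it is itself broken down in the vacuole with its cargo. In plants NBR1 is known for clearing protein aggregates in heat and other stress. The data are RNA levels and hold no measure of protein or of flux through autophagy.

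Roots of Arabidopsis seedlings, ecotype Col-0, were taken 5 days after germination for 18 RNA-seq libraries. The genotypes were WT and a line labelled as the lpcat1/2 double mutant, called lpcat, which is disrupted in both genes for lysophosphatidylcholine acyltransferase, the enzyme that turns lysophosphatidylcholine (LPC) back into phosphatidylcholine. Each genotype was grown on control MS medium, on MS medium with 20 µg/mL lysoPAF, an ether analog of LPC, or with 20 µg/mL lysoPAF and ONO (50 µM in the labels), an inhibitor of phospholipase A2. The paper's methods describe the MS medium of these roots as less than full strength. Its text states the ONO dose in µg/mL, so the concentration of ONO is uncertain. Each of the 6 groups had 3 libraries, the labels do not say whether these came from separate cultures, and the mutant is a single line. P-values then measure the spread between these libraries, which may be technical.

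The libraries held 8681898 to 16767002 reads in genes. LPCAT1 lay between 47.3 and 72.1 normalized counts in the lpcat libraries and between 247 and 342 in WT, whereas LPCAT2 was higher in lpcat (435 to 774) than in WT (186 to 234). A count over a whole gene does not show whether the transcript is intact, so the LPCAT2 level does not check its label. All 7 root markers had reads in every library. The 6 shoot photosynthesis markers did too, and their sum ranged from 679.7 to 4594.6 normalized counts. One library, labelled lpcat control replicate 2, differed widely from the others of its group. On the first principal component (30.7% of the variance) it lay at 32.5, where replicates 1 and 3 lay at -31.2 and -34.4 and the lpcat lysoPAF libraries at 30.9 to 37.6. It also had the lowest sum of shoot markers, 679.7 against 4134.0 and 4544.2 in the other lpcat control libraries. Calls of members that rest on it are given with and without it, and the part of shoot RNA in them was not tested. Levels per kb, correlations between genes, shares of the ATG8 sum and the named genes of other autophagy lists are given with all libraries only. In whole roots, fewer cells of a type and less RNA per cell cannot be told apart.

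The coding ends of the ATG8 genes show how the family divides. The last 8 codons of the longest coding sequence, the stop codon included, are shown 5′ to 3′ for ATG8A, ATG8D and ATG8F, which were called in at least 1 comparison, and for ATG8H and ATG8I, whose ends differ in kind. The glycine codons are in capitals.
ATG8A: tttGGAtctcttaccgttgcttga
ATG8D: aacacgttcGGGatcttcttctaa
ATG8F: acatttGGAtttGGAtctccataa
ATG8H: agcaccgagaaaactttcGGCtaa
ATG8I: agcagtgagaaaacctttGGTtga
They lie at chr4:11656786-11656809, chr2:2083211-2083234, chr4:9306882-9306905, chr3:1955219-1955242 and chr3:5274075-5274098 of TAIR10.1, the RefSeq annotation used, on the plus strand for ATG8A and the minus strand for the others. In ATG8A 5 codons follow the glycine codon before the stop and in ATG8D 3. ATG8F holds 2 glycine codons here, and 2 codons follow the last of them. Which of these glycines trimming exposes was not determined, so the ATG8F count does not compare with the others. In ATG8H and ATG8I no codon lies between the glycine codon and the stop, so their glycine is already terminal without trimming. Over the 9 annotated ATG8 genes, coding sequences were 58.2% to 85.3% identical over aligned bases. The longest run of identical bases between 2 ATG8 transcripts was 53, between ATG8A and ATG8B, and the median over 36 pairs was 13. The read length that the paper states is above the longest of these runs, so no full-length read falls wholly within such a run. Whether shorter, trimmed reads did was not examined.

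The members lie on chromosomes 1 to 4. NBR1 (AT4G24690) is annotated at chr4:12741032-12744670, plus strand, with 7 exons. ATG8A (AT4G21980) is at chr4:11655562-11657034, ATG8F (AT4G16520) at chr4:9306339-9308538 and ATG8D (AT2G05630) at chr2:2082894-2084905. ATG8C (AT1G62040) is at chr1:22932760-22934549 and ATG8E (AT2G45170) at chr2:18624264-18625791. ATG8G (AT3G60640), ATG8H (AT3G06420) and ATG8I (AT3G15580) are at chr3:22415751-22417548, chr3:1954990-1956397 and chr3:5273526-5275095. NBR1 overlaps a gene on the opposite strand, AT4G24700, and that gene had at most 3.75 normalized counts in any library. ATG8A overlaps APR3 (AT4G21990) by 27 bases on the opposite strand. APR3 had means of 1494 normalized counts in lpcat control, 1496 in lpcat lysoPAF and 1491 in WT control. Its mean was highest in WT lysoPAF, at 1847, and lowest in WT with ONO, at 1224, and it was 1481 in lpcat with ONO. ATG8I overlaps AT3G15578, which had no read in any library.

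In root libraries of WT on control medium, ATG8F was the most abundant ATG8 transcript per length, at a mean of 749.5 normalized counts per kb of exon (727.7 to 786.3 over 3 libraries). The length is that of all annotated exons of a gene together, 1864 bases for ATG8F and 712 for ATG8H. It may differ from the length transcribed or counted, so ranks between genes depend on it. ATG8H followed with 397 ± 51.8 (SD, n = 3) and ATG8A with 365 ± 28.0, and these did not differ beyond their spread. ATG8E (266 ± 26.9 per kb) lay above ATG8D (207 ± 22.7 per kb) without overlap of the libraries. ATG8I, ATG8C and ATG8G had 72.1, 64.8 and 57.2 normalized counts per kb, with overlapping libraries. NBR1 had 764 ± 16.7 per kb, and its libraries overlapped those of ATG8F.

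In lpcat on lysoPAF ATG8F still had the highest mean of the ATG8 genes, and ATG8A came next. ATG8F had 671 ± 6.88 normalized counts per kb and ATG8A 623 ± 41.9. Their libraries overlapped only by the highest of ATG8A (665.9) and the lowest of ATG8F (665.8). ATG8A also had a higher mean than ATG8H in lpcat control (512 against 485) and in WT with ONO (425 against 379). ATG8D had 391 ± 84.4 per kb, in libraries that overlapped those of ATG8H (531 ± 77.4). NBR1 reached 1939 ± 221 per kb, above every ATG8 gene in every library of the group. The same held in every other group but WT control. In WT lysoPAF, for example, NBR1 had 938 to 988 per kb and ATG8F 738 to 889.

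**Figure D1:**
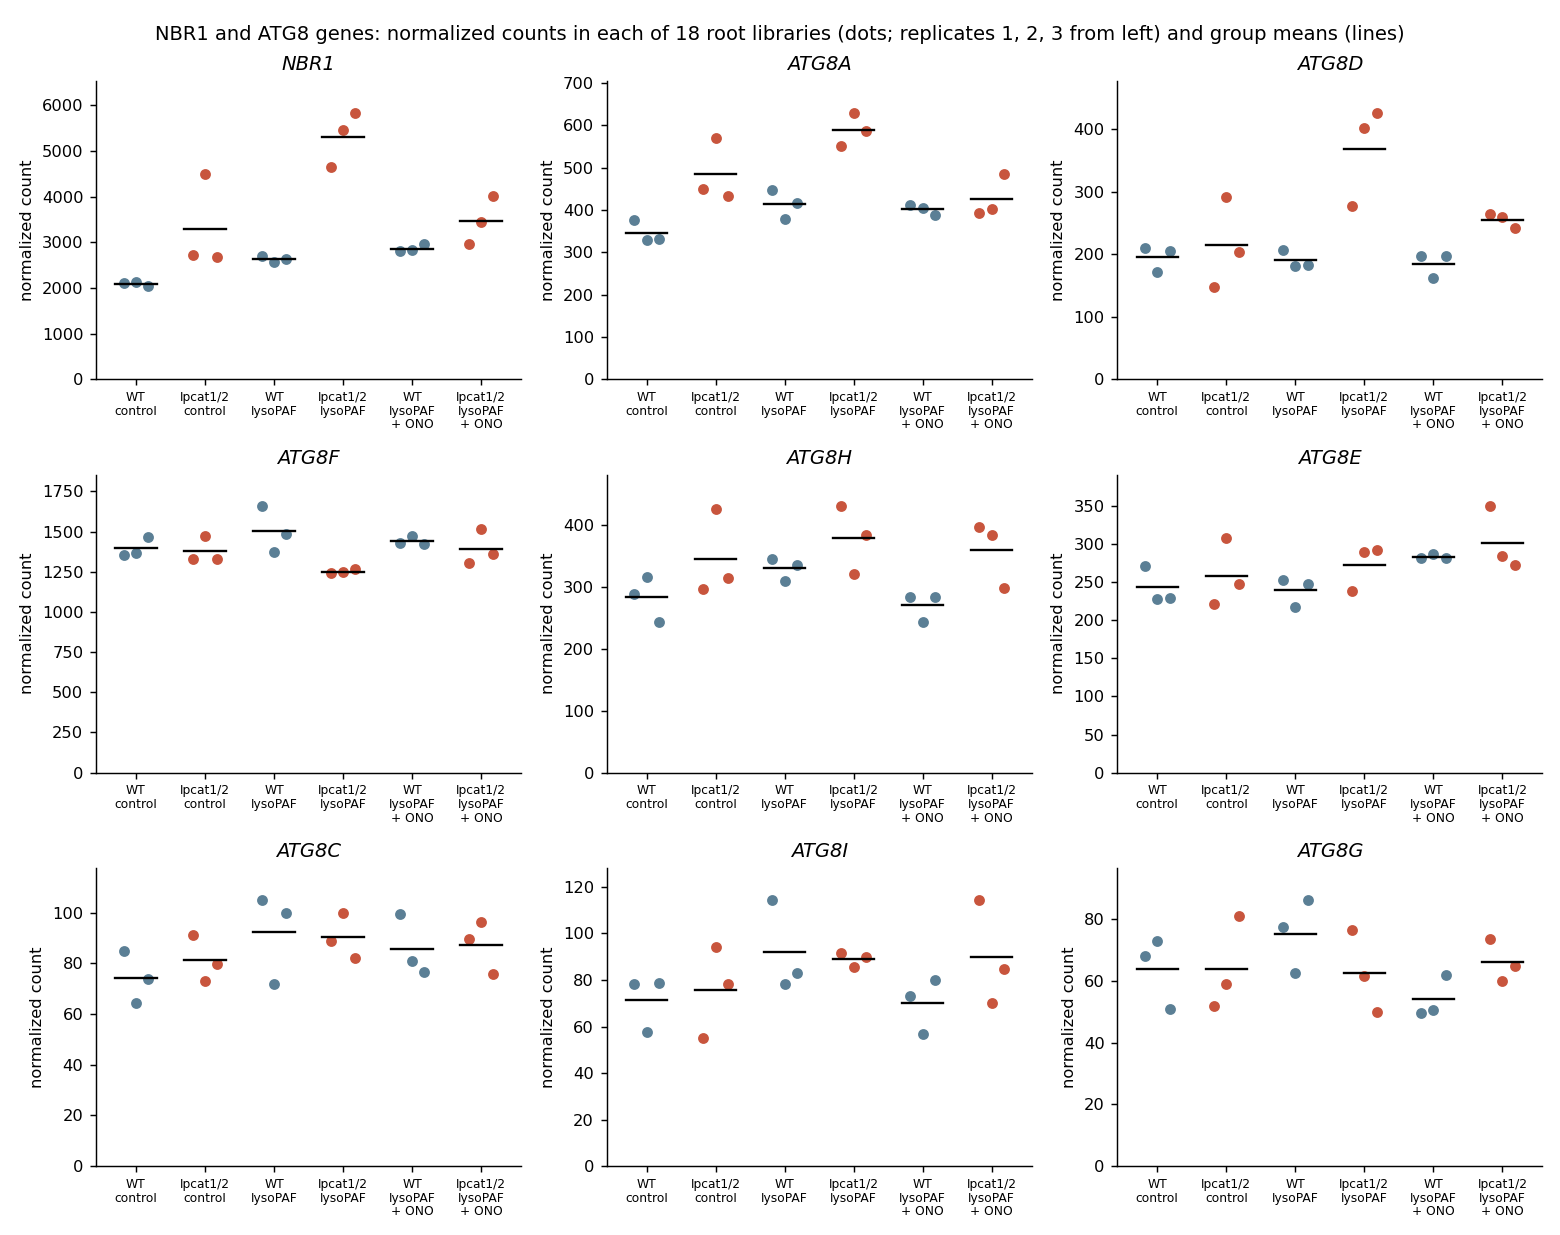
Normalized counts (y axis, from 0) of NBR1 and 8 ATG8 genes in the 6 groups (x axis), with 1 dot per library, replicates 1 to 3 from left to right, and a line at the group mean; blue is WT and red is lpcat. NBR1, ATG8A and ATG8D are highest in lpcat on lysoPAF, and lpcat control replicate 2 lies high for all 3 genes.

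On control medium the comparison asks how the mutant differs without added lipid. NBR1, the cargo receptor, was higher in lpcat, and so was ATG8A. No other ATG8 gene passed the test. NBR1 had 2109, 2130 and 2042 normalized counts in WT and 2713, 4493 and 2672 in lpcat. All lpcat libraries lay above all WT libraries, and replicate 2 lay far above the other lpcat libraries. The log2 fold change was 0.61 (SE 0.15; limma, adjusted p = 0.0282). ATG8A had 376, 330 and 330 normalized counts in WT and 450, 570 and 433 in lpcat. Again the groups did not overlap and replicate 2 was the highest (log2 fold change 0.48, SE 0.11, limma adjusted p = 0.0186). Of the 9 members 2 were called, both higher, where 2.77% of all tested genes were called. The members' median log2 fold change was 0.08, and that of all tested genes was -0.01.

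Without lpcat control replicate 2 the log2 fold change of NBR1 fell to 0.36 (limma adjusted p = 0.0291) and that of ATG8A to 0.36 (adjusted p = 0.0319). Neither call held in a fit of the compared groups alone, where limma gave adjusted p = 0.394 for NBR1 and 0.301 for ATG8A. Leaving out WT control replicate 1, 2 or 3 ended the call of NBR1 (limma adjusted p = 0.079, 0.0825 and 0.0935), and leaving out WT control replicate 2 or 3 that of ATG8A (0.0817 and 0.0744). The root markers COBL9, of root hair cells, and CASP1, of the endodermis, were higher in the same comparison (log2 fold changes 0.67 and 0.57, limma adjusted p = 0.000495 and 0.000484). The 7 root markers summed to 4437 to 4641 normalized counts in lpcat control and 3751 to 4083 in WT control. They were not higher as a set, with a median log2 fold change of 0.03 and a range from -0.26 to 0.67. SHR (620 to 692 against 707 to 852) and PLT1 (234 to 264 against 286 to 303) lay lower in lpcat. Without lpcat control replicate 2, 2 root markers were called higher and 1 lower. Their part in the result was not tested.

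On lysoPAF the mutant differed most from WT. NBR1 was 2-fold higher in lpcat, with 4651, 5465 and 5835 normalized counts against 2709, 2572 and 2643 in WT. The lowest lpcat library lay well above the highest WT library. The log2 fold change was 1.00 (SE 0.15, limma adjusted p = 0.000239). ATG8D had 278, 402 and 426 normalized counts in lpcat against 207, 182 and 183 in WT. The groups did not overlap, and replicate 1 was the lowest of the lpcat libraries (log2 fold change 0.93, SE 0.18, limma adjusted p = 0.00287). ATG8A had 550, 629 and 586 against 447, 378 and 417 normalized counts, again without overlap (log2 fold change 0.51, SE 0.11, limma adjusted p = 0.0041).

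ATG8F, the most abundant family member in WT, went the other way. It had 1241, 1247 and 1266 normalized counts in lpcat and 1656, 1375 and 1486 in WT. The lpcat libraries were close to each other and below all WT libraries, and the log2 fold change was -0.26 (SE 0.08, limma adjusted p = 0.0309). The call of ATG8F did not hold with the compared groups alone (limma adjusted p = 0.0662). It also ended without WT lysoPAF replicate 1 (0.156) or 3 (0.0775) or without any one lpcat lysoPAF library (0.0754, 0.0913 and 0.076 for replicates 1, 2 and 3). The calls of NBR1, ATG8A and ATG8D held when any library was left out. In all 3 of 9 members were higher in lpcat and 1 was lower, where 11.2% of tested genes were called. The members' median log2 fold change was 0.19 against 0.00 over all tested genes. Of the root markers PLT1, of the stem cell niche, was lower in lpcat here (-0.45, limma adjusted p = 0.0115) and COBL9 higher (0.39, 0.0126), and their part in the result was not tested.

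ATG8C, ATG8E, ATG8G, ATG8H and ATG8I did not pass the test on lysoPAF. Their log2 fold changes ran from -0.27 for ATG8G to 0.19 for ATG8E, with a 95% interval from -0.70 to 0.16 for ATG8G and from -0.07 to 0.45 for ATG8E.

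With ONO added to lysoPAF, no member differed between lpcat and WT by the limma test. Members with an unadjusted p under 0.05 numbered 2, and neither edgeR nor DESeq2 called any (0 and 0). The background was 3.27% of tested genes, and the members' median log2 fold change was 0.27 against 0.01 over all tested genes. NBR1 had 2959, 3438 and 4005 normalized counts in lpcat and 2800, 2823 and 2964 in WT, and the groups overlapped (log2 fold change 0.27, 95% interval -0.04 to 0.57, limma adjusted p = 0.369). ATG8D had 264, 259 and 242 in lpcat and 197, 161 and 197 normalized counts in WT. Its groups did not overlap, but it did not pass the test (log2 fold change 0.46, interval 0.08 to 0.85, adjusted p = 0.183). ATG8H, which like ATG8I ends at its glycine, had 397, 385 and 298 against 284, 243 and 283 normalized counts (log2 fold change 0.40, interval 0.11 to 0.70, adjusted p = 0.13). Without lpcat control replicate 2, which belongs to neither group but enters the shared estimate of the spread, both ATG8D (limma adjusted p = 0.039) and ATG8H (0.0332) were called, and the background was 8.69%. In that fit 2 of the 6 shoot markers were also higher in lpcat, and their part was not tested.

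**Figure D2:**
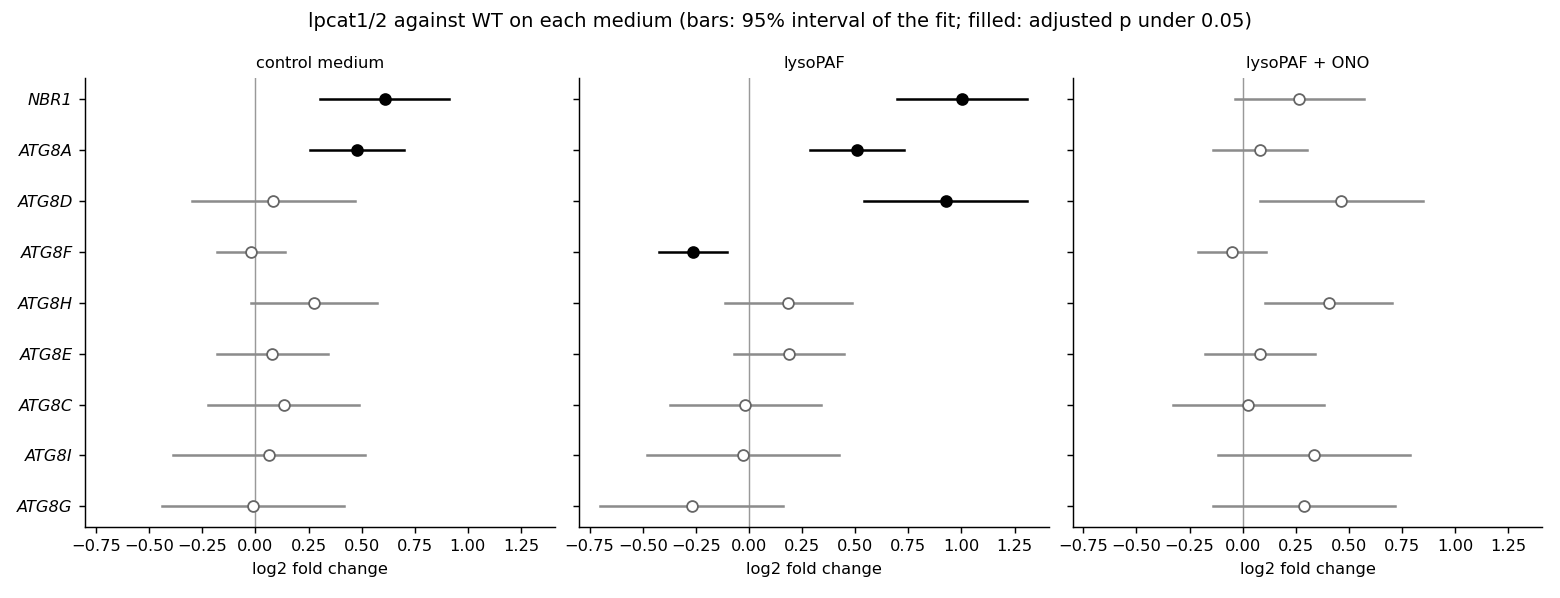
Log2 fold change of lpcat against WT (x axis) for the 9 members on control medium, lysoPAF and lysoPAF with ONO; bars are 95% intervals of the limma fit on 18 libraries and filled circles passed an adjusted p of 0.05. NBR1 has values of 0.61, 1.00 and 0.27 from left to right and ATG8A 0.48, 0.51 and 0.08.

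Within WT, lysoPAF changed no member by the limma test. An unadjusted p under 0.05 was reached by 2 members, and edgeR and DESeq2 called none (0 and 0), while 2.48% of tested genes were called. The members' median log2 fold change was 0.24, against -0.01 over all tested genes. NBR1 had 2042 to 2130 normalized counts on control medium and 2572 to 2709 on lysoPAF, without overlap, but it did not pass the test (log2 fold change 0.33, 95% interval 0.03 to 0.64, limma adjusted p = 0.242). ATG8A did not pass either, and its groups did not overlap (log2 fold change 0.26, interval 0.04 to 0.48, adjusted p = 0.205). NBR1 was called when only the compared groups were fitted (adjusted p = 0.032) and without lpcat control replicate 2 (adjusted p = 0.0239, background 6.84%). The interval of ATG8D in WT ran from -0.42 to 0.35.

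Within lpcat, lysoPAF raised NBR1 and ATG8D. NBR1 went from 2672 to 4493 normalized counts on control medium to 4651 to 5835 on lysoPAF, with lpcat control replicate 2 just below the lowest lysoPAF library (log2 fold change 0.73, SE 0.15, limma adjusted p = 0.017). ATG8D went from 148 to 291 to 278 to 426 normalized counts, and lpcat control replicate 2 overlapped the lysoPAF libraries (log2 fold change 0.81, SE 0.18, adjusted p = 0.026). These 2 calls of 9 members compare with 3.51% of tested genes, and the median was 0.15 against 0.01. Without lpcat control replicate 2 the log2 fold change was 0.98 for NBR1 (limma adjusted p = 1.03e-07) and 1.06 for ATG8D (2.28e-05). ATG8A was then called as well (0.41, adjusted p = 0.00438), where the background was 18.7%. In the same fit 4 of the 6 shoot photosynthesis markers were lower on lysoPAF (median log2 fold change -1.60), against 0 with all libraries, and their part in these values was not tested.

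Both calls within lpcat were lost with the compared groups alone (limma adjusted p = 0.470 for each). They were lost too without lpcat control replicate 1 or 3, or without lpcat lysoPAF replicate 2 or 3. The adjusted p then lay between 0.077 and 0.153 for NBR1 and between 0.108 and 0.166 for ATG8D.

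Adding ONO to lysoPAF lowered NBR1 and ATG8A in lpcat. NBR1 fell from 4651 to 5835 normalized counts to 2959 to 4005, without overlap (log2 fold change -0.62, SE 0.15, limma adjusted p = 0.0157). ATG8A fell from 550 to 629 to 392 to 485, also without overlap (log2 fold change -0.47, SE 0.11, limma adjusted p = 0.0124). ATG8D moved from 278 to 426 to 242 to 264 normalized counts and did not pass the test (log2 fold change -0.51, 95% interval -0.89 to -0.12, adjusted p = 0.112). ATG8D was called when lpcat control replicate 2 was left out (adjusted p = 0.0188), where the background was 11.8%, and so it was without lpcat lysoPAF replicate 1 (log2 fold change -0.70, adjusted p = 0.0427). The 2 members called of 9 compare with 6.06% of tested genes, and the median was -0.05 against 0.01. In the same step PLT1 was higher (0.45, limma adjusted p = 0.0197) and CASP1 lower (-0.33, 0.0217), and their part was not tested.

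The NBR1 call in this step was lost on leaving out lpcat lysoPAF replicate 2, with a limma adjusted p of 0.0623, or 3, with 0.0834. It was also lost on leaving out lpcat lysoPAF+ONO replicate 1 (0.0834) or 2 (0.0605). That of ATG8A was lost without lpcat lysoPAF replicate 2 (0.0665), lpcat lysoPAF+ONO replicate 1 (0.0621) or lpcat lysoPAF+ONO replicate 2 (0.0675). In WT the same step changed no member (limma; 1 unadjusted p under 0.05, 0 by edgeR, 0 by DESeq2, background 5.49%). The log2 fold change of NBR1 was 0.12 there (95% interval -0.19 to 0.42), and that of ATG8A was -0.04 (interval -0.26 to 0.18). ATG8G had the largest shift in WT, a log2 fold change of -0.47 (interval -0.90 to -0.04, adjusted p = 0.212).

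**Figure D3:**
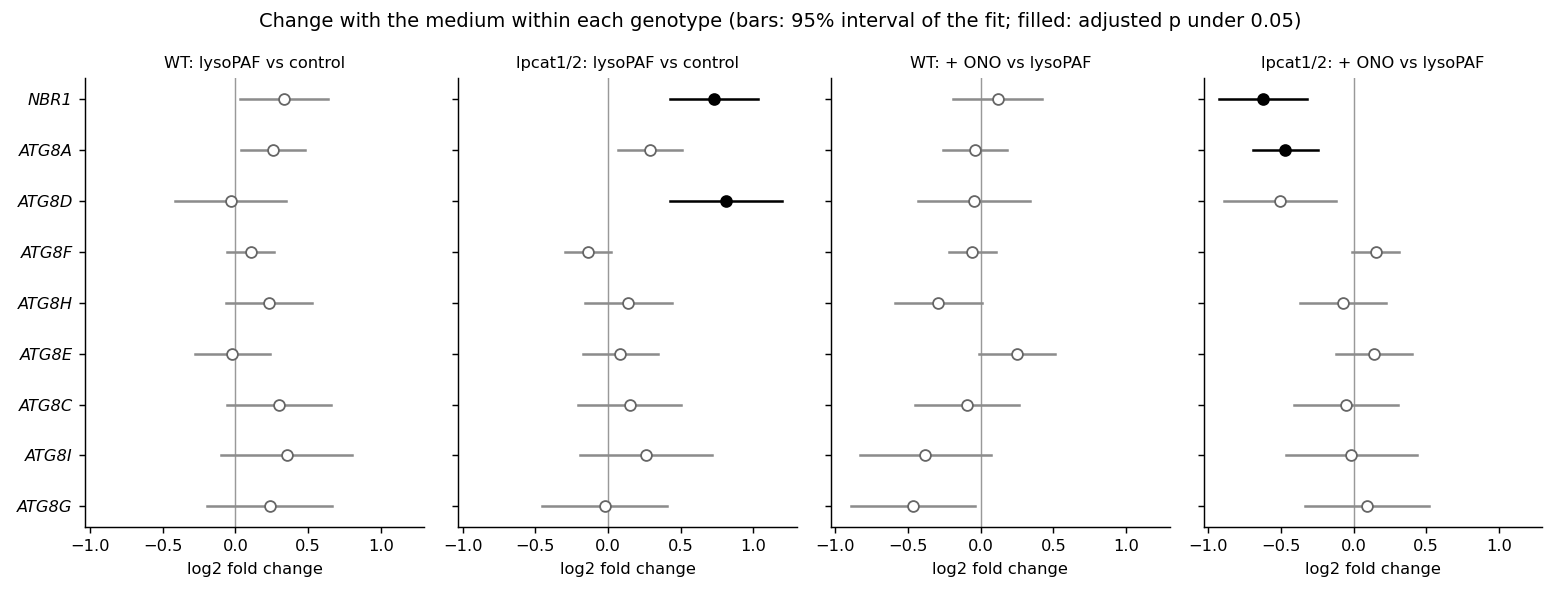
Log2 fold change with the medium (x axis) of the 9 members in WT and lpcat, for lysoPAF against control and for lysoPAF with ONO against lysoPAF; bars are 95% intervals of the limma fit and filled circles passed an adjusted p of 0.05. In lpcat NBR1 shifts by 0.73 and then by -0.62, and in WT by 0.33 and 0.12.

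With both chemicals against control medium, no member was called in either genotype by limma. In WT 1 member had an unadjusted p under 0.05 (0 called by edgeR, 1 by DESeq2, background 9.75%), and in lpcat 0 did (0 by edgeR, 0 by DESeq2, background 7.06%). NBR1 in WT went from 2042 to 2130 to 2800 to 2964 normalized counts, without overlap, with a log2 fold change of 0.45 (SE 0.15, limma adjusted p = 0.0563). This value lay close to the threshold. It was called by DESeq2 (adjusted p = 0.0247), with a replicate block (0.044), with the compared groups alone (0.00485), with a mean of at least 10 normalized counts (0.0487), and without lpcat control replicate 1, 2 or 3 (0.0433, 0.000988 and 0.0388). In lpcat the log2 fold change of NBR1 was 0.11 (95% interval -0.20 to 0.41), and without lpcat control replicate 2 it was 0.35 (adjusted p = 0.0164). ATG8D and ATG8E were called in lpcat too without that library (log2 fold changes 0.55 and 0.36, adjusted p = 0.0172 and 0.0443, background 15.6%), and 2 of the 6 shoot markers were lower in the same fit, a move whose part was not tested.

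Whether the steps differed between the genotypes was tested as an interaction. For lysoPAF no member was called by limma (2 with an unadjusted p under 0.05, 0 by edgeR, 0 by DESeq2), and 0.0547% of tested genes were. The largest difference was that of ATG8D, 0.84 on the log2 scale (SE 0.26, 95% interval 0.30 to 1.39, limma adjusted p = 0.226). For NBR1 it was 0.39 (interval -0.04 to 0.82, adjusted p = 0.483). Without lpcat control replicate 2 both were called, ATG8D at 1.09 (adjusted p = 0.00122) and NBR1 at 0.64 (adjusted p = 0.00271), where 9.49% of tested genes and 1 of the 6 shoot markers (in the negative direction) were called, and the part of the latter was not tested. The call of an interaction with lysoPAF thus turned on that library.

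For the ONO step, which does not involve control libraries, the response of NBR1 was lower in lpcat than in WT by -0.74 on the log2 scale (SE 0.21, 95% interval -1.17 to -0.31) and did not pass the limma test (adjusted p = 0.0857). The background was 1.26%, 2 members had an unadjusted p under 0.05, and edgeR called 0. NBR1 passed with DESeq2 (adjusted p = 0.0216), with the compared groups alone (0.00642) and without lpcat control replicate 2 (0.00114). For ATG8A the difference was -0.43 (interval -0.74 to -0.11, adjusted p = 0.182).

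Across the 18 libraries NBR1 and ATG8A followed each other closely, with a Pearson r of 0.93 on the log2 scale. The value was 0.84 for NBR1 with ATG8D and 0.74 for ATG8A with ATG8D. ATG8F ran against them, at -0.43 with NBR1 and -0.43 with ATG8D. The other ATG8 genes had r with NBR1 of 0.58 (ATG8H), 0.44 (ATG8E), 0.35 (ATG8I), 0.20 (ATG8C) and -0.16 (ATG8G). These are descriptions over libraries that share their 6 groups, so they mostly repeat the differences between groups. Among 12534 genes with a mean of at least 100 normalized counts, NBR1 was the gene next most like ATG8A after GAPC1 (r = 0.96), a cytosolic glyceraldehyde-3-phosphate dehydrogenase gene, and AT5G17460 (0.95). The genes most like NBR1 were AT4G19200 (0.99), SRC2 (0.98), AT1G05340 (0.98), AT5G01750 (0.97) and AGP15 (0.96). Those most like ATG8D were ADF6 (0.95), AT5G10695 (0.94), BTI1 (0.94), PP2-B1 (0.93) and ARFA1D (0.92). The best matches of ATG8C, ATG8F and ATG8G reached only 0.77, 0.76 and 0.77.

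**Figure D4:**
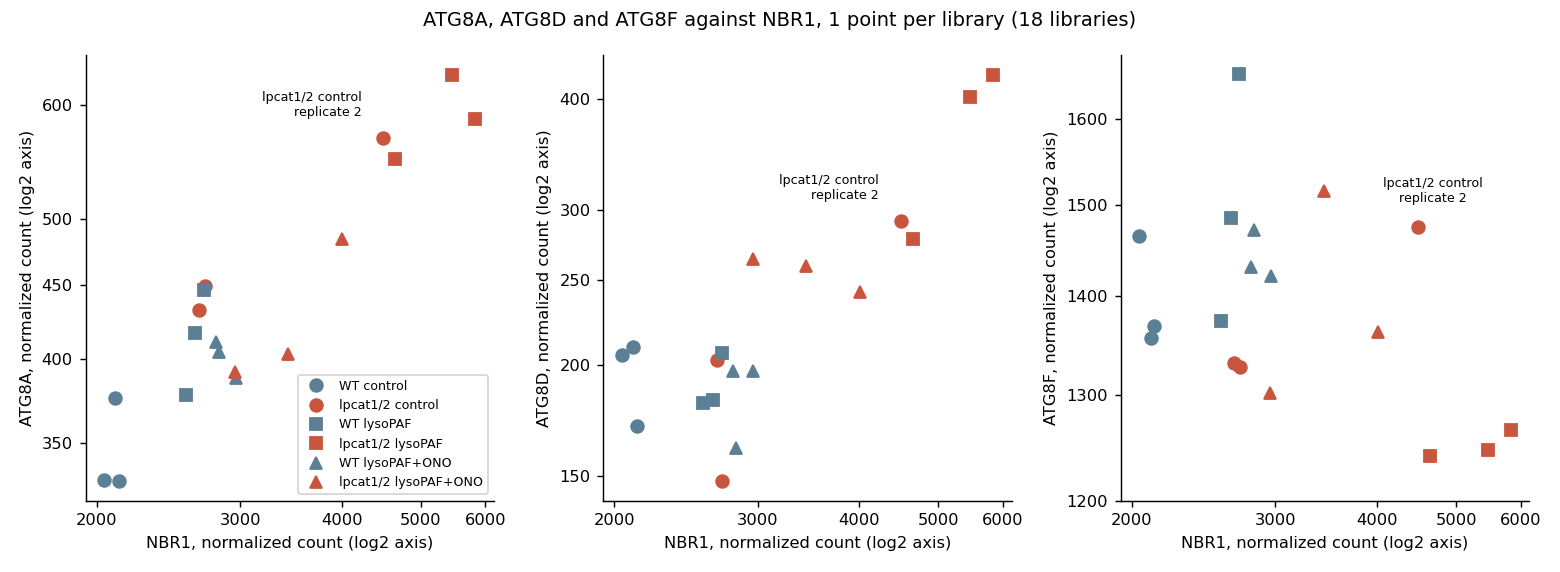
Normalized counts of ATG8A, ATG8D and ATG8F (y axes, log2 scale) against NBR1 (x axis, log2 scale), 1 point per library; colour gives the genotype and shape the medium. Lpcat control replicate 2, at 4493 for NBR1, lies beside the lpcat lysoPAF libraries for ATG8A and ATG8D but not for ATG8F, where it has 1475.

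The make-up of the ATG8 transcripts also differed between groups. Summed over 8 genes per kb of exon, they ranged from 2136 to 2848 normalized counts per kb over all libraries. ATG8F made up 34.4% ± 2.34 of this sum in WT control and 33.4% ± 0.515 in WT lysoPAF (SD, n = 3). In lpcat it made up 30.4% ± 2.43 on control medium, 24.5% ± 0.577 on lysoPAF and 29.6% ± 2.37 with ONO. The 3 lpcat lysoPAF libraries had the lowest ATG8F shares of all 18, from 24.1% to 25.2%. ATG8D made up 14.2% ± 2.68 in lpcat on lysoPAF and 8.38% ± 0.368 in WT on lysoPAF. ATG8A made up 22.7% ± 1.24 and 18.2% ± 0.0871. These shares were formed from the same counts as the fold changes and were not tested again. They also depend on the exon lengths used.

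The promoters of the 3 members called higher in lpcat than in WT on lysoPAF were read for known motifs, to see whether they share letters. The 250 bases before the annotated start of each gene are shown 5′ to 3′ on the strand of the gene, from RefSeq TAIR10.1, with TGACG in capitals.
NBR1: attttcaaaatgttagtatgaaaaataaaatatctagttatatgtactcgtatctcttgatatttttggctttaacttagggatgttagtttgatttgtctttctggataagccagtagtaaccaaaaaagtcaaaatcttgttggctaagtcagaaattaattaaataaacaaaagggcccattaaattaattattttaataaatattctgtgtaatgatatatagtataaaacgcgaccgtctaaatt
ATG8A: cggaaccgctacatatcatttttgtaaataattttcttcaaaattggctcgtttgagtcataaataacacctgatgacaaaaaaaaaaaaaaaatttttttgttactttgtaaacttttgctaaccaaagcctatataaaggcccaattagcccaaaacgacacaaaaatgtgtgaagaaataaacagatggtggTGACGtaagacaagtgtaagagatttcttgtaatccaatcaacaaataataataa
ATG8D: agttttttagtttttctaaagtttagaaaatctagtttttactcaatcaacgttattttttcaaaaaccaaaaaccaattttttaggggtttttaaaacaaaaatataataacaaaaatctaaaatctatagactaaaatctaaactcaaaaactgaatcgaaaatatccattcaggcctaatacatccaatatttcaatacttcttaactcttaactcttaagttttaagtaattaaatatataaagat
They lie at chr4:12740782-12741031 (plus strand), chr4:11655312-11655561 (plus strand) and chr2:2084906-2085155 (minus strand). The motifs searched on both strands were TGACG, bound by TGA factors, CACGTG, the G-box, and GAANNTTC and TTCNNGAA, which are parts of heat shock elements. None of the last 3 occurred in any member (0 of 10, ATG8B included), where 6.49%, 9.55% and 7.68% of 27443 promoters of the same length held them. TGACG stood in 6 of 9 ATG8 promoters, those of ATG8A, ATG8E, ATG8F, ATG8G, ATG8H and ATG8I, against 18.6% of all promoters. In ATG8A it began at position -55. The promoters of NBR1 and ATG8D held none of the 4 motifs, so the 3 members called higher on lysoPAF did not share one of these in this window.

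The rest of the autophagy pathway was followed with 7 lists of 54 tested genes. On control medium 4 were higher in lpcat and 0 lower (7.41%, against 2.77% of all tested genes, with a median log2 fold change of 0.14 against -0.01). They were ATG9, a membrane protein that brings lipid to the forming autophagosome (0.37), FREE1, a protein of multivesicular bodies (0.32), and the vacuolar protease genes RD21A (0.60) and gammaVPE (0.37). The limma adjusted p were 0.0156, 0.0342, 0.00214 and 0.0467. When lpcat control replicate 2 was left out, 12 of the 54 were higher and 1 lower, where 7.06% of tested genes were called. None of the 8 ATG8 conjugation genes was among the 4.

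On lysoPAF 5 of the 54 were higher in lpcat and 3 lower, 14.8% against a background of 11.2%. The other cargo receptors DSK2A (0.42, limma adjusted p = 0.00384) and RPN10 (0.55, 0.00551), which bind ubiquitinated proteins and proteasomes for autophagy, were higher in lpcat, as NBR1 was. They were the only 2 called of 12 tested cargo receptors and ATG8 interactors, whose median log2 fold change was 0.11. ATG18A, which binds phosphoinositides on the forming membrane, also rose (0.34, adjusted p = 0.0247), as did RD21A (0.54, 0.00193) and betaVPE (0.59, 0.0175). ATG12A, a ubiquitin-like partner of ATG5 in ATG8 lipidation, was lower in lpcat by 0.80 on the log2 scale (limma adjusted p = 0.0442) at only 13.2 to 34.5 normalized counts. The kinase ATG1C was lower in lpcat by 0.32 (limma adjusted p = 0.0236). TGA9, a TGACG-binding factor known to activate autophagy genes, was lower by 0.33 (limma adjusted p = 0.0136). From control medium to lysoPAF, TGA9 went from 302 to 367 to 330 to 339 normalized counts in lpcat. In WT it went from 339 to 354 to 408 to 433.

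With ONO the lists held 2 calls between genotypes, 3.7% against 3.27%. ATG11, a scaffold of the ATG1 kinase complex, was higher in lpcat (0.39, limma adjusted p = 0.0451) and TGA9 lower (-0.36, 0.0217). Between media, lysoPAF called 0 of the 54 in WT and 1 in lpcat, ATG1C (-0.33, adjusted p = 0.0433), where the backgrounds were 2.48% and 3.51%. ATG1C rose again when ONO was added in lpcat (0.32, limma adjusted p = 0.036), the only call of 54 in that step with all libraries (1.85% against 6.06%). Without lpcat control replicate 2, lysoPAF in lpcat called 3 of the 54 higher and 5 lower. In that fit the ONO step in lpcat called 5 higher and 1 lower. The backgrounds of both steps, given above, were larger in that fit too.

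In WT the ONO step raised RAPTOR1B, a TOR complex subunit (0.36, limma adjusted p = 0.0482), alphaVPE (0.90, 0.0199) and RD21A (0.59, 0.00128). These 3 of 54 make 5.56%, near the background of 5.49%, and 2 of 7 root markers were higher in the same step. Against control medium, lysoPAF with ONO raised 11 of the 54 in WT and lowered 0, 20.4% against 9.75%. Among them were VPS34 (0.40, limma adjusted p = 0.00421) and VPS15 (0.39, 0.0183) of the phosphatidylinositol 3-kinase complex, ATG18H (0.41, 0.0029), TGA9 (0.29, 0.0305) and alphaVPE (1.20, 0.0014). Of the 6 TOR and SnRK1 regulators, TGA9 included, 3 were called higher. TOR itself had 769 to 934 normalized counts in WT control and 981 to 1169 in WT with both chemicals. No ATG8 gene was called in that comparison, in which 4 of 7 root markers were higher, and their part was not tested. In lpcat ATG11 (0.42, adjusted p = 0.0175) and VPS34 (0.36, 0.0141) rose, 3.7% against 7.06%. The response of RD21A to ONO differed between the genotypes (-0.77, limma adjusted p = 0.0142). RD21A had 3151 to 3769 normalized counts in WT lysoPAF and 4544 to 5689 in WT with ONO, against 4720 to 5553 and 4151 to 4949 in lpcat.

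**Figure D5:**
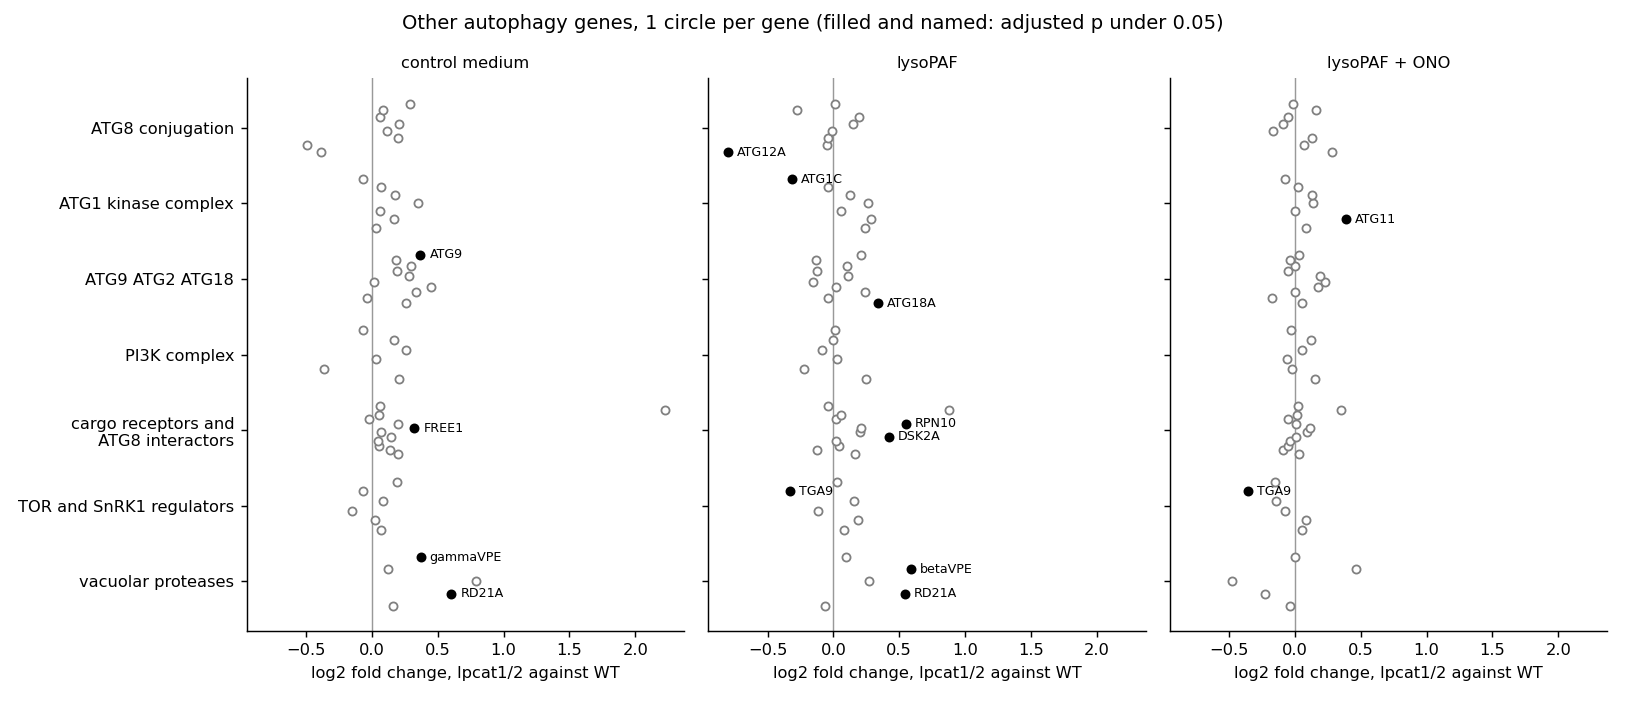
Log2 fold change of lpcat against WT (x axis) for 54 other autophagy genes in 7 lists (y axis) on the 3 media; each circle is a gene, and filled, named circles passed a limma adjusted p of 0.05. There are 4 calls on control medium, 8 on lysoPAF and 2 with ONO.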

How the data were processed

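The authors aligned paired-end reads of TruSeq v2 libraries to TAIR10 with STAR 2.4.0j and used StringTie 1.0.3, HTSeq 0.6.0 and DESeq2 1.12.4, according to the paper and the submitters' processing notes. The deposited signal values are normalized counts, read counts that the authors divided by a size factor per library. The strand setting of the counting is not given in the sources used here, so reads of overlapping genes cannot be told apart. Reads were recovered from the steps of the values (0.609 to 1.24 per read), and 400470 of 400470 values above 0 came out whole within 0.001. Of the rows, 501 carried no gene identifier.

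The test was limma 3.58.1 (R 4.3.3) applied to log2(normalized count + 1), a scale that understates changes of low genes, for rows whose recovered reads summed to at least 5. The fit had a variance trend, 1 coefficient per group and all 18 libraries, and p-values were adjusted by Benjamini and Hochberg over 23760 rows. A call is an adjusted p under 0.05. Intervals are 95% intervals of this fit and are not adjusted. The scripts were tested on simulated data. Alternatives were pseudocounts of 0.5 and 5, other filters and scalings, edgeR 4.0.16 and DESeq2 1.42.0 on recovered reads, the compared groups alone, a replicate block, the sum of rows per identifier, and leaving out each library.

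Same-numbered replicates of lpcat on control medium and lysoPAF deviated together (correlations 0.249, 0.188 and 0.113), but the block changed no call of a member there. The 10 identifiers and all lists were chosen with earlier results of these data known. Named genes were these members, LPCAT1 and LPCAT2, up to 3 called genes per list and comparison with the smallest p, and the 5 genes most like a member. AT3G15578, AT4G24700 and APR3 were added as overlapping genes. Root markers were SHR, SCR, PLT1, WER, COBL9, CASP1 and MYB36, and shoot markers RBCS1A, RBCS3B, LHCB1.1, LHCB1.3, LHCA1 and PSAD1.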

Additional observations from a re-analysis of the deposited data

How the results depend on the processing

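The number of members called was recomputed under 11 settings and with each of 18 libraries left out, for 11 comparisons. No log2 fold change of a called member changed direction in 290 recomputations. Fitting the compared groups alone called 0 members for lpcat against WT on control medium, 0 for lysoPAF in lpcat, 1 for lysoPAF in WT, 1 for both chemicals in WT and 1 for the interaction with ONO. DESeq2 called 1 for both chemicals in WT and 1 for the interaction with ONO, and a mean of at least 10 normalized counts called 1 for both chemicals in WT. With the replicate block both chemicals called 1 in WT, NBR1; the block moved no other count of members. Over 27 pairs of same-numbered libraries the correlation of deviations ran from -0.243 to 0.331, with 13 over 0.1. Those of lysoPAF with ONO against control in WT were 0.0656, 0.263 and 0.331, so shared deviations were not confined to lpcat. The labels do not say what same-numbered libraries shared.

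With each library left out, the members called ranged from 0 to 2 for lpcat against WT on control medium, from 3 to 4 on lysoPAF and from 0 to 2 with ONO. For lysoPAF they ranged from 0 to 1 in WT and from 0 to 3 in lpcat, and for the ONO step from 0 to 0 in WT and from 0 to 3 in lpcat. For both chemicals they ranged from 0 to 1 in WT and from 0 to 3 in lpcat. For the interactions they ranged from 0 to 2 with lysoPAF and from 0 to 1 with ONO. Without lpcat control replicate 2 more members were called in 8 of the 11 comparisons. Some of these do not involve lpcat control, so their log2 fold changes stay the same and only the shared estimate of the spread changes. In those that involve lpcat control the fold changes moved as well, and the part of each was not tested. Why that library differed was not tested either. With 3 libraries a group, differences of low members such as ATG8G, at 49.7 to 86.2 normalized counts, had intervals too wide to exclude a change.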
